A study of Mus musculus with 12 samples.

Results

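CTCF binding was described at imprinted genes, the genes whose expression depends on the parent of origin. The set held 48 genes in 19 imprinted domains, and a CTCF peak belonged to it where its summit lay in the body of a member gene or within 10 kb of it. In the 6 peak lists together, 145 merged sites met this rule, of 56247 sites in all. The lists came from CTCF ChIP-seq of 3 organs, the brain, the heart and the lung, taken from mouse embryos at E18.5. The embryos had a C57BL/6 background per the labels (the study's methods give C57BL/6 N) and were either wild type or homozygous for R567W, a missense change in CTCF made by CRISPR/Cas9 editing. The labels named 12 samples, 6 of them ChIP libraries with a peak list and 6 of them inputs, and each organ and genotype had 1 ChIP library. No difference between genotypes therefore had a replicate check, and none was tested. The lists hold no expression values, so the organ and genotype labels could not be checked against marker genes.

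CTCF is a DNA-binding protein with a row of zinc fingers. Its central fingers read a core motif, and its last fingers, among them the one that holds R567, read an upstream motif present at some sites. At imprinted genes, DNA methylation laid down in the germ line marks one parental copy of a control region, and CTCF is known to bind several such regions on the copy that is not methylated. The best studied is the region upstream of H19, a maternally expressed long noncoding RNA, where bound CTCF insulates the growth factor gene Igf2 from enhancers it would otherwise share with H19. Since the embryos came from a single inbred background, reads of the maternal and paternal copies could not be told apart, and each value below sums both.

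The sequences that carry the main contrasts are shown first. Each line gives 49 bases of GRCm38, the build of the peak lists (mm10), read 5′ to 3′ on the strand of the core motif: 30 bases and then the 19-base core in capitals. The 9-letter upstream motif TGCAGTNCC is also in capitals where it was found on the core's strand with no more than 2 mismatches. The first set holds the 4 core motifs under sites 2 and 3 of the H19 control region, the sites with wild-type peaks, which all lay on the minus strand and at chr7:142580307-142580325, chr7:142580762-142580780, chr7:142581788-142581806 and chr7:142582032-142582050.
H19 upstream motif 2: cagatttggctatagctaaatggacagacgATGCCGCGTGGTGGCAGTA
H19 upstream motif 3: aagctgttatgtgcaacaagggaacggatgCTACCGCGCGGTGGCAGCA
H19 upstream motif 4: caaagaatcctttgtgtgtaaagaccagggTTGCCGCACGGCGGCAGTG
H19 upstream motif 5: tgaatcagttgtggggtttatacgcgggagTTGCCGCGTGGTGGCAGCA

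The second set holds the cores of the 4 sites in the 5′ part of Ins2, the insulin gene next to Igf2, whose longest GENCODE transcript spans them. Sites 7, 8 and 9 followed the naming rule, and site 10 was added after its values were seen.
H19-Igf2 site 7: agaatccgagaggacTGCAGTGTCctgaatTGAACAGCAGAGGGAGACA
H19-Igf2 site 8: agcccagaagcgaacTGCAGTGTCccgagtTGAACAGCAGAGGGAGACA
H19-Igf2 site 9: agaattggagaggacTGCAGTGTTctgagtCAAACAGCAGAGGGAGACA
H19-Igf2 site 10: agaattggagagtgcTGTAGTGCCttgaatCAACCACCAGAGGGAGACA

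The last set holds sites of other domains. At its first 9 lines one or more mutant lists lacked a peak or gave a lower pileup, with an upstream motif at the first 6 and none at the next 3, Snrpn site 8, Kcnq1 site 13 and Gnas site 4. Its final 5 lines are sites listed in brain and lung of both genotypes with at least 66 reads, of which Inpp5f site 3 and Nnat site 6 carried the motif. Of these 5, Dlk1-Dio3 site 4 was in neither heart list, and Trappc9 site 9 was lower in mutant heart and lung (log2 ratios −0.98 and −0.57). Kcnq1 site 25 and Igf2r site 4 were added for their motifs, after their values were seen.
Kcnq1 site 24: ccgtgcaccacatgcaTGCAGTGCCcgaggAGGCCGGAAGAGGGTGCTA
Kcnq1 site 25: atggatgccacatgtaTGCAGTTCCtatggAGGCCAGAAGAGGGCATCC
Igf2r site 2: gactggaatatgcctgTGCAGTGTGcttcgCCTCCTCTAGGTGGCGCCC
Igf2r site 4: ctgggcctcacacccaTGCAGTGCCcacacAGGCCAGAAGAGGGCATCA
Igf2r site 13: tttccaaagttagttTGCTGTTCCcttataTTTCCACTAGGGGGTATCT
Trappc9 site 1: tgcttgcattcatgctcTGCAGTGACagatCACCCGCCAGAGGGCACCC
Snrpn site 8: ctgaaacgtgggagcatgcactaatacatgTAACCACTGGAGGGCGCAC
Kcnq1 site 13: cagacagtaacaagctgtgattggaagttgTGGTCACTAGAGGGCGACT
Gnas site 4: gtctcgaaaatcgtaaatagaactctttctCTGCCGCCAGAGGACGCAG
Inpp5f site 3: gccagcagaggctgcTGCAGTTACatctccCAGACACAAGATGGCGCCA
Nnat site 6: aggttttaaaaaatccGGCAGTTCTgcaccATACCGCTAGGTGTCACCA
Dlk1-Dio3 site 4: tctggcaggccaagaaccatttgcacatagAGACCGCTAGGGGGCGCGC
Trappc9 site 9: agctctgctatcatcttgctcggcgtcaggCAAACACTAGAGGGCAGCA
H13 site 1: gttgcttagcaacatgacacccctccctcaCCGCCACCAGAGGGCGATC

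The 4 cores shown from the H19 control region contained a CG, the dinucleotide that carries methylation, and none of them had an upstream motif, the best match having 4 mismatches. The Ins2 cores contained no CG, and each had an upstream motif that ended 6 bases before the core, with 1 mismatch at sites 7, 8 and 10 and 2 at site 9. Over their 49 bases, sites 7 and 9 were identical at 43 positions, sites 7 and 8 at 39 and sites 8 and 10 at 32. The 19-base core shared by sites 7 and 8 stood at 9 sites of the whole series. The core of Igf2r site 4 stood at 459 sites. Of the 34 member sites with an upstream motif, 10 had a core whose letters also stood at another site.

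Wild-type brain had 93 member peaks and mutant brain 109, heart had 62 and 42, and lung had 115 and 93. For brain, heart and lung the mutant-to-wild-type ratio of these numbers was 1.17, 0.677 and 0.809, and the same ratios over the whole lists were 1.07, 0.547 and 0.732. With both lists of an organ cut to equal length, brain had 93 wild-type and 103 mutant member peaks, heart 34 and 42, and lung 92 and 93. Members made up 0.258% to 0.365% of a list. Fewer cells with a bound site and less CTCF per cell cannot be told apart in whole organs, and neither can a change in 1 parental copy and a change in both. Depth was estimated as the genome background of a list divided by the length of its shortest region, and reads were not counted. By this estimate the libraries were of similar depth, from 7.14 to 9.27 reads for each kb. The wild-type lung list stood apart in its local background, which at member summits was 2.72 times the genome background, while in the other lists it was at most 1.13 times. This lowers the fold enrichment in that list, and binding is therefore given as the summit pileup, the number of reads stacked at a peak's summit.

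**Figure D1:**
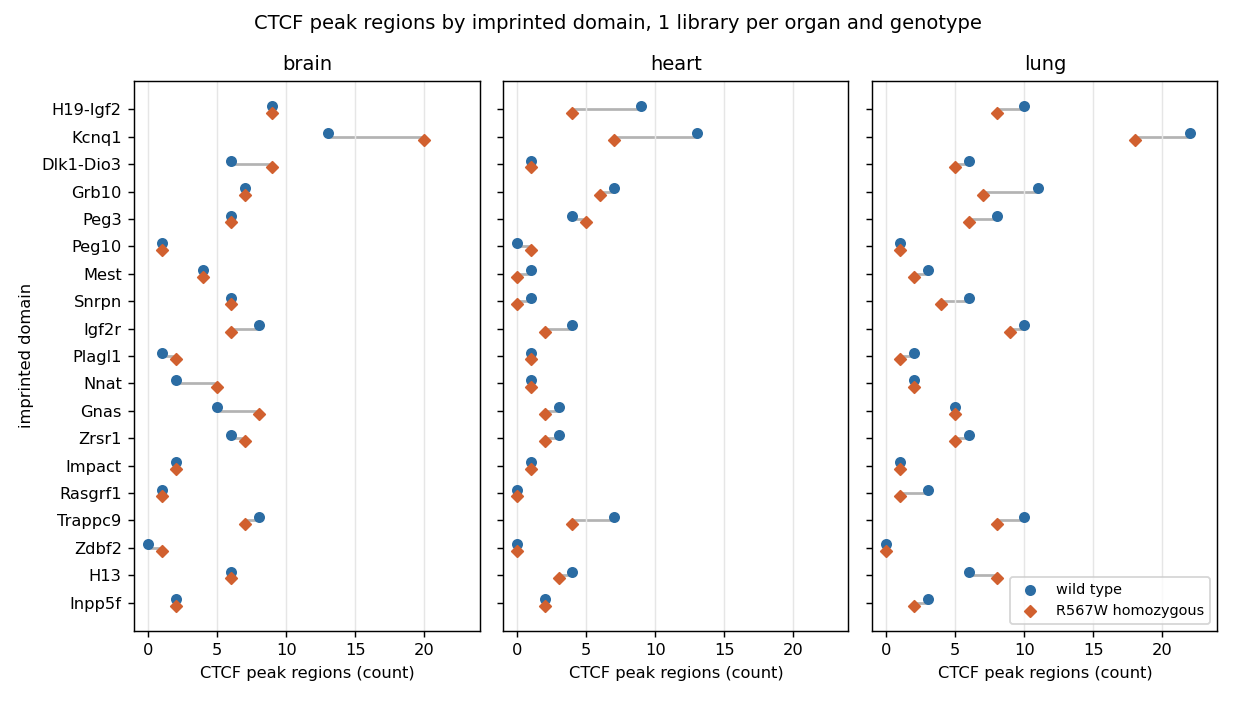
CTCF peak regions (count, horizontal axis) in each of the 19 imprinted domains (vertical axis) in brain, heart and lung, with circles for wild type and diamonds for R567W homozygous embryos and 1 library per point. In heart the H19-Igf2 domain went from 9 to 4 regions and the Kcnq1 domain from 13 to 7, while in brain the Kcnq1 domain went from 13 to 20. Over the whole lists the mutant-to-wild-type ratio of peak numbers was 0.547 in heart and 1.07 in brain.

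Most wild-type member peaks had a mutant counterpart. In brain, 85 of 93 (91.4%, 95% Wilson interval 83.9 to 95.6) were overlapped by a mutant peak and 8 were not, and of the whole wild-type list 81.5% were overlapped. In heart, 38 of 62 (61.3%, 48.8 to 72.4) were overlapped and 24 were not, beside 50.6% overlapped in the whole list. In lung, 83 of 115 (72.2%, 63.4 to 79.5) were overlapped and 32 were not, beside 67% in the whole list. These intervals cover counting error only. Member peaks without a counterpart had median pileups of 24, 19.5 and 23 reads in the wild-type lists, and such peaks of the whole lists 19, 22 and 22. For overlapped peaks the medians were 51, 34.5 and 84 reads at members and 50, 36 and 92 over the whole lists. The highest member peak without a counterpart, in wild-type lung, had 120 reads.

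In the other direction, 25 of 109 mutant brain peaks had no wild-type overlap, against 24.5% of the whole mutant brain list. In heart this was 3 of 42, against 7.12%, and in lung 10 of 93, against 9.11%. The 25 in brain had a median pileup of 15 reads, against 16 for all such peaks of the list, and 16 of them (64%, against 38.7%) lay at a promoter, within 1 kb of a transcription start. Member peaks of mutant brain with or without an overlap lay there more often too (36.7%, against 27.6% of the list). Of the 145 merged sites, 37 had a peak in all 6 lists (25.5%, against 18.6% of all sites), 24 had wild-type peaks alone (16.6%, against 22.3%) and 24 had mutant peaks alone (16.6%, against 13.1%). Of the 24 with mutant peaks alone, 20 had a peak in brain, 8 in lung and 0 in heart, and over all such sites of the series the shares were 78.8%, 29.5% and 0.516%. At a promoter lay 14 of the 24 (58.3%), against 36.4% of all such sites. For sites of every kind the promoter shares were 34.5% at members and 25.6% over the series, a difference that a rule built on gene windows favours.

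**Figure D2:**
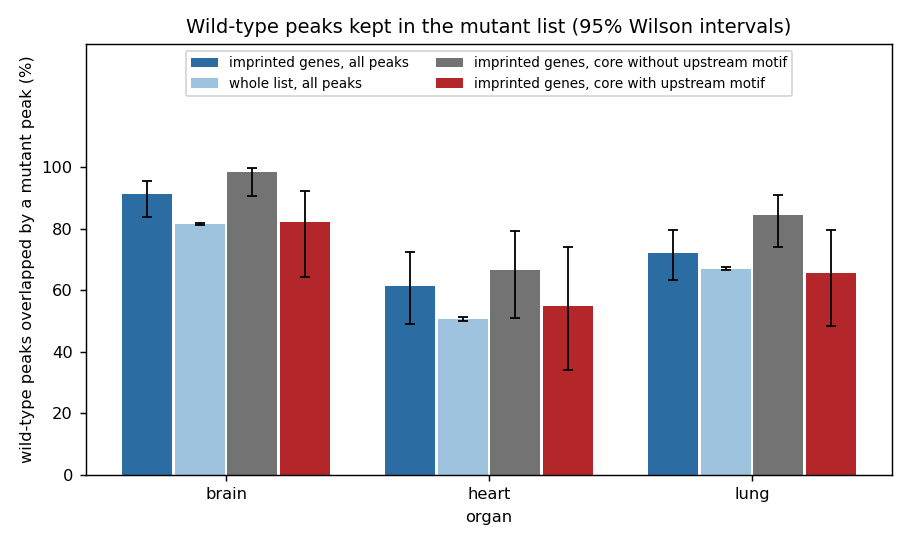
Share of wild-type CTCF peaks (%, vertical axis) overlapped by a mutant peak in brain, heart and lung, for peaks at imprinted genes, for whole lists, and for member peaks with a core motif split by the upstream motif. Error bars are 95% Wilson intervals, which cover counting error only. Member peaks stood at 91.4%, 61.3% and 72.2%, and in each organ the bar for peaks with an upstream motif is lower than the bar for those without.

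Across organs, 57 member sites (39.3%, against 34.8% of all sites) had a wild-type peak in every organ. In mutant brain, heart and lung 3, 20 and 5 of these had no peak, and over all such sites of the series the shares without one were 6.43%, 46.3% and 6.63%. A wild-type peak in 1 organ alone was found at 34 member sites (23.4%, against 30.6% of all sites), of which 26 were in lung, 8 in brain and 0 in heart, and of all such sites of the series 70.7% were in lung, 27.4% in brain and 1.92% in heart. The 2 sites with a wild-type peak in all 3 organs and no mutant peak in any were both in Ins2.

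At sites with a peak in both genotypes, mutant pileup was set over wild-type pileup on a log2 scale, after dividing each by the genome background of its list. This ratio's median over 83 shared member sites was 0.09 in brain (95% order-statistic interval over sites, which are not replicates, −0.05 to 0.22), over 38 sites in heart −0.13 (−0.43 to −0.04) and over 81 sites in lung −0.11 (−0.31 to −0.03). Over all shared sites of the same organs the medians were −0.04, −0.25 and −0.36, so member sites had medians of 0.13, 0.12 and 0.25 relative to them, and the sign in heart and lung depends on this choice of reference. Without the division by genome background the medians over all shared sites were 0.21, −0.11 and −0.46, so their sign in brain depends on this scaling. Reads given for single sites are not divided. No spike-in factor enters the reads or the ratios, so a site can be read only relative to other sites of the same organ. With spike-in normalization, the study reported reduced CTCF binding at many sites in mutant brain, heart and lung.

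At least 2-fold lower pileup in the mutant was found at 5 of 83 shared member sites in brain, against 11.3% of all shared sites. In heart it was found at 1 of 38, against 7.12%, and in lung at 16 of 81, against 20.9%. At least 2-fold higher pileup was found at 2 member sites for brain (background 3.19%), 0 for heart (0.17%) and 0 for lung (0.524%). Relative to the median of all shared sites, 8 lung sites in place of 16 were at least 2-fold lower, against 11.4% of all shared lung sites. The 5 in brain were Trappc9 site 1 (log2 ratio −2.30), Snrpn site 8 (−1.91), H19-Igf2 site 7 (−1.57), Igf2r site 2 (−1.36) and Kcnq1 site 13 (−1.11). The 2 higher in brain were Dlk1-Dio3 site 11 (1.34), at the start of Dio3os, and Igf2r site 10 (1.17), inside Airn.

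**Figure D3:**
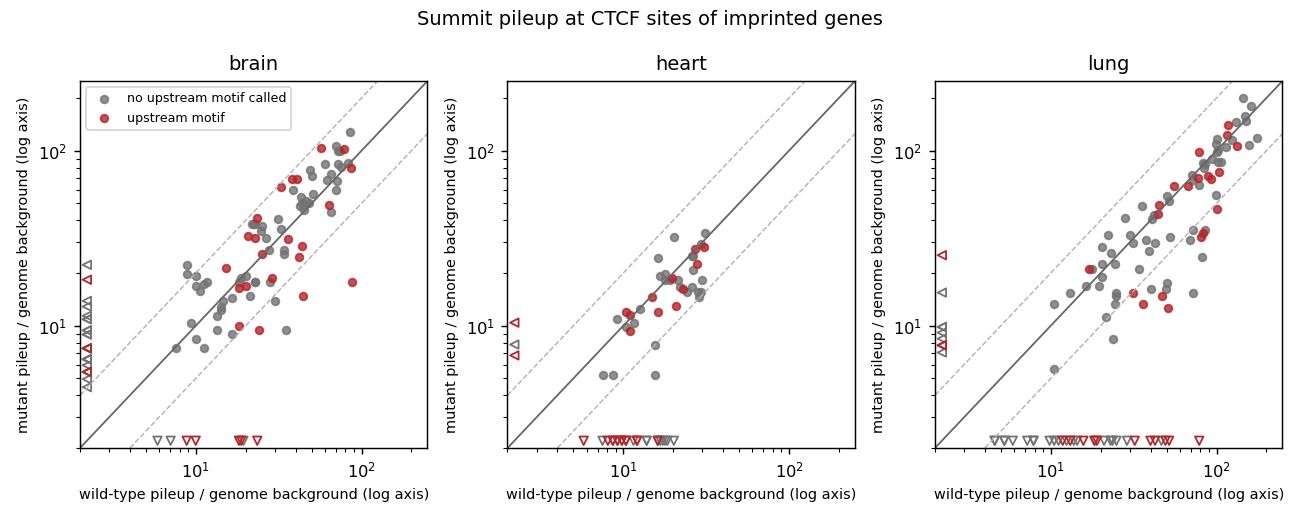
Summit pileup divided by the genome background of the list at member sites, wild type on the horizontal and mutant on the vertical axis (both log axes), for brain, heart and lung. The solid line marks equal values and the dashed lines a 2-fold difference, open triangles at the edges are sites with a peak in 1 genotype, and red marks an upstream motif. In lung 16 of the 81 shared sites lie at or below the lower dashed line.

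Within 100 bp of a summit, the core motif was called on one or the other strand, with a p of at most 1e-04, at 121 of 145 member sites (83.4%, 76.6 to 88.6), and at 83.6% of all sites. In windows 1100 bp away it was found at 9.66% and 8.57%. All 37 sites present in all 6 lists had it, as did 15 of the 24 sites with wild-type peaks alone and 16 of the 24 with mutant peaks alone. Over all sites of the same 3 kinds the shares with it were 97.3%, 74.3% and 67%. The upstream motif was found within 30 bases 5′ of the core at 34 of the 121 (28.1%, 20.9 to 36.7), against 26.5% of all sites with a core. A mirrored window downstream of the core held it at 16.5% and 13.3%. A CG lay in the core of 63 member sites (52.1%), against 43.8% of all sites with a core.

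Of the member peaks with an upstream motif, mutant peaks overlapped 23 of 28 (brain), 11 of 20 (heart) and 21 of 32 (lung). Those with a core and no upstream motif were overlapped at 56 of 57, 26 of 39 and 59 of 70. Over the whole lists the shares with and without the motif were 78.3% and 85.2% for brain, 45.8% and 55.6% for heart, and 64.3% and 73.3% for lung. The member counts thus ordered the same way as the whole lists in each organ, and the difference was not tested. The median pileup of member peaks with and without the motif was 46 and 51 reads for wild-type brain, 21 and 31 for heart, and 78.5 and 64.5 for lung, and the part of these levels in the counts was not tested.

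In the H19-Igf2 domain, 10 sites were named: 3 upstream of H19, 1 at an Igf2 promoter, 2 between Igf2 and Ins2, and 4 in the 5′ part of Ins2. Wild-type lists had 9, 9 and 10 peaks in brain, heart and lung, and mutant lists had 9, 4 and 8. A mutant peak overlapped 7 of 9, 3 of 9 and 8 of 10 of the wild-type peaks, beside shares of 81.5%, 50.6% and 67% over the whole lists.

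The H19 control region was taken as the 5 kb upstream of the H19 start at chr7 position 142578143. It held 7 core motifs, of which motifs 2 and 3 lay in the region chr7:142580054-142581042 (site 2) and motifs 4 and 5 in chr7:142581560-142582210 (site 3). Site 2, about the 2 motifs nearer to H19, had pileups of 43, 16 and 64 reads in wild-type brain, heart and lung and 75, 21 and 61 in the mutant. It was the one of the pair listed in all 6 libraries, with log2 ratios of 0.56, 0.24 and 0.03. These take the summit of highest fold enrichment in each list, which in brain and heart was not at the same motif in both genotypes. At motif 2 the lists gave 34, 16 and 47 reads in the wild type and 75, 16 and 57 in the mutant, with log2 ratios of 0.89, −0.15 and 0.38. At motif 3 they gave 43, 16 and 64 reads and 68, 21 and 61, with log2 ratios of 0.41, 0.24 and 0.03. In brain the scaled mutant level was higher at both motifs, while in heart the sign differed between them. Without a spike-in factor these ratios do not show a gain of binding. Site 3 had 47, 20 and 110 reads in the wild type and 55 in mutant brain and 22 in mutant lung, with no peak listed in mutant heart. Its log2 ratio was −0.02 in brain and −2.22 in lung, the lowest ratio among shared member sites in lung. Within site 2 each list named a summit at each of the 2 motifs, 2 to 52 bases from the motif centre. Within site 3 the mutant lung list named a summit of 22 reads at motif 4 and one of 17 reads at motif 5, and the other 4 lists named 1 summit, nearest to motif 4. A further region, chr7:142579047-142579359 (site 1), was listed in mutant brain alone with 22 reads and lay over motif 1, which has no CG in its core. Motif 7, under no listed region, had none either.

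In Ins2, site 7 (chr7:142714654-142715221, in an Ins2 exon) had 75, 28 and 153 reads in the wild type and 30 in mutant brain and 66 in mutant lung, with log2 ratios of −1.57 and −1.11 and no peak in mutant heart. Site 8 (chr7:142720638-142721077, in an intron) had 32, 18 and 79 reads in the wild type and no mutant peak in any organ. Site 9 (chr7:142725837-142726517, in an intron) had 31, 14 and 65 reads and likewise no mutant peak in any organ, a pattern found at 3.15% of all sites of the series with a wild-type peak in every organ. Site 10 (chr7:142736876-142738172, in an intron) was listed in all 6 libraries, with 74, 34 and 159 reads in the wild type and 58, 36 and 107 in the mutant and log2 ratios of −0.60, −0.07 and −0.47. All 4 Ins2 sites carried the upstream motif, and in the mutant 2 had no peak in any organ, 1 had a peak in brain and lung, and 1 was listed in every organ. The sites with the lowest wild-type pileup of the 4 were those without a mutant peak.

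Between these groups, site 5 (chr7:142672091-142672484) had 71, 21 and 126 reads in the wild type and 50 in mutant brain and 48 in mutant lung, with no peak in mutant heart. Site 6 (chr7:142675666-142676199) had 58, 31 and 119 reads in the wild type and 52, 35 and 91 in the mutant. Site 5 had an upstream motif with 2 mismatches and site 6 had none. At the Igf2 promoter, site 4 had 13 reads in wild-type heart and 31 in wild-type lung, and 12 in mutant brain and 32 in mutant lung.

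**Figure D4:**
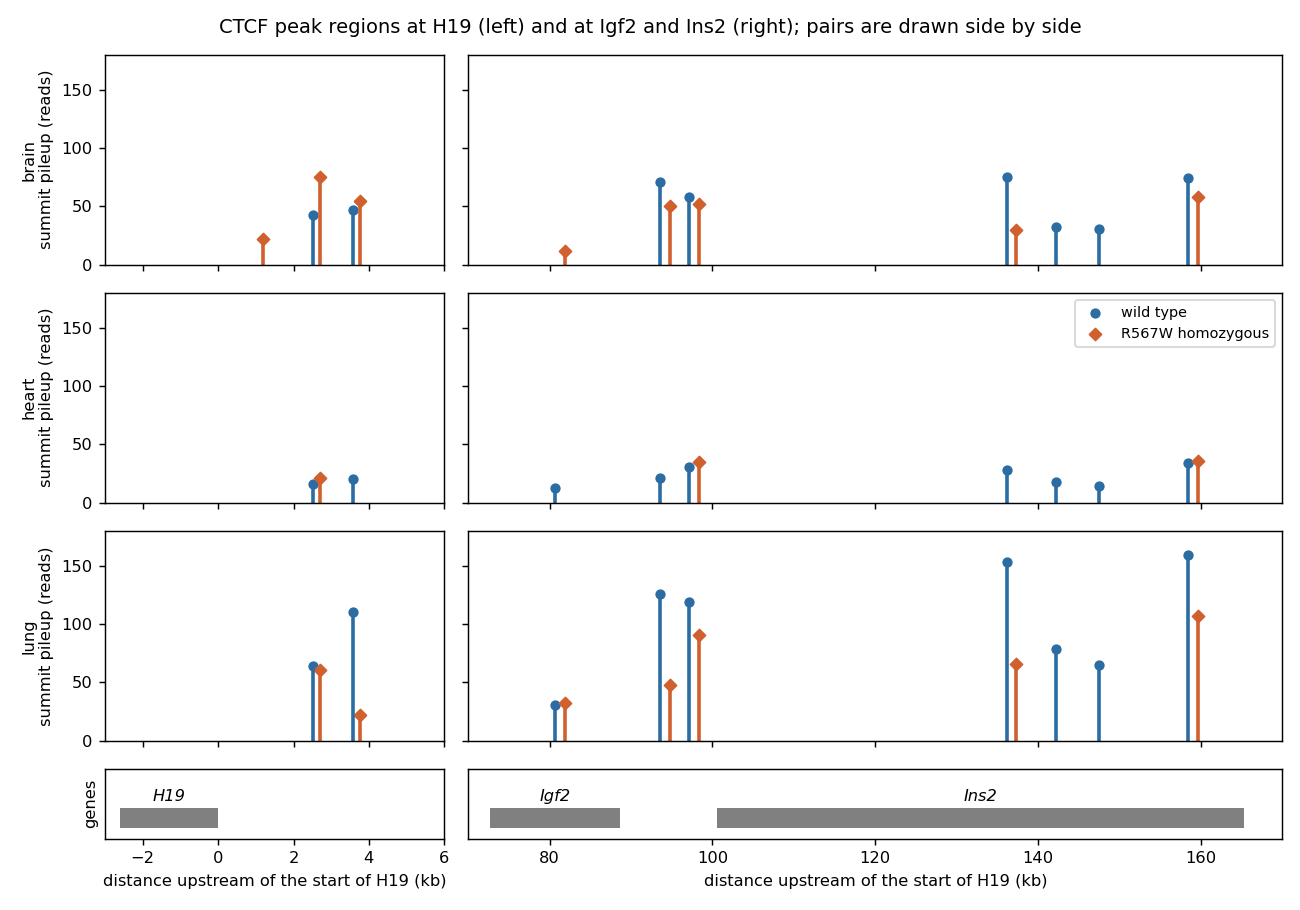
Summit pileup (reads, vertical axes) of CTCF peaks against distance upstream of the H19 start (kb, horizontal axes), for brain, heart and lung from top to bottom, with the genes in the lowest panels, circles for wild type and diamonds for R567W homozygous embryos. Lines stand where a peak was listed, and the pair of Ins2 sites with 32 and 31 reads in wild-type brain has no mutant line in any organ.

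The Kcnq1 domain, where the noncoding RNA Kcnq1ot1 silences its neighbours on the paternal copy, held 27 sites, more than any other domain, over 509 kb of gene windows. Its wild-type lists had 13, 13 and 22 peaks and its mutant lists 20, 7 and 18, for brain, heart and lung. No peak in any list lay in Kcnq1ot1 or within 10 kb of it. Kcnq1 itself, a potassium channel gene, had a cluster of intronic sites, of which site 16 (chr7:143153661-143154336) had 119, 54 and 226 reads in the wild type and 214, 65 and 225 in the mutant. The nearby site 13 (chr7:143151093-143151621) had 51, 30 and 110 reads in the wild type and 28 in mutant brain and 50 in mutant lung, with log2 ratios of −1.11 and −1.04 and no peak in mutant heart.

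At Cdkn1c, a cell-cycle inhibitor expressed from the maternal copy, site 20 (chr7:143466139-143466854) had the highest median wild-type pileup of the domain, with 121, 42 and 188 reads, and 135, 30 and 163 in the mutant. At Phlda2, a gene that limits placental growth, 2 neighbouring sites carried the upstream motif without a mismatch. Site 24 (chr7:143505843-143506219) had 31, 17 and 75 reads in the wild type and 20 in mutant brain, a log2 ratio of −0.88, and no peak in mutant heart or lung. Site 25 (chr7:143506612-143507158) had 43, 16 and 123 reads in the wild type and 52 in mutant brain and 46 in mutant lung, with log2 ratios of 0.03 and −1.32. In heart neither had a mutant peak and in lung the mutant was lower or not listed, while in brain the scaled level of site 24 was lower and that of site 25 close to the wild type.

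The Igf2r domain, with the receptor gene Igf2r, the noncoding RNA Airn and the cation transporter genes Slc22a2 and Slc22a3, held 13 sites. Its wild-type lists had 8, 4 and 10 peaks and its mutant lists 6, 2 and 9. Site 1 (chr17:12416076-12416807) lay outside Slc22a3, within 10 kb of its 3′ end. It had the highest median over the wild-type organs, with 79, 33 and 155 reads in the wild type and 104, 35 and 144 in the mutant. Site 12 (chr17:12810282-12810892, in Airn) was higher than it in wild-type heart and lung, with 58, 45 and 173 reads, and had 55, 32 and 149 in the mutant. Site 2 (chr17:12421047-12421553, in Slc22a3), the neighbour of site 1, had 41, 15 and 78 reads in the wild type and 19 in mutant brain and 18 in mutant lung, with log2 ratios of −1.36 and −2.02. Site 4, whose upstream motif had no mismatch, had 17 reads in wild-type brain and 61 in wild-type lung and no mutant peak. Site 13 (chr17:12858078-12858702, in Airn) had 40, 18 and 72 reads in the wild type and 21 in mutant lung alone. No site lay within 1 kb of an Airn start, and at the Igf2r start a peak of 19 reads was listed in mutant brain alone.

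The Trappc9 domain, with the maternally expressed potassium channel gene Kcnk9 in brain and the large gene Trappc9, held 11 sites. Trappc9 site 1 (chr15:72516999-72517463, in a Kcnk9 intron) had 149 reads in wild-type brain, the highest member pileup of that list, and 21 and 120 in wild-type heart and lung. The mutant had 36 reads in brain, a log2 ratio of −2.30, the lowest of the shared member sites in brain, and no peak in heart or lung. Its upstream motif had 1 mismatch and ended 4 bases before the core. Trappc9 site 9 (chr15:73022797-73023317) had the highest member pileup of the wild-type lung list, 267 reads, with 142 and 50 in brain and heart, and 171, 28 and 168 in mutant brain, heart and lung. Site 6, 210 bp from the start of Peg13, a noncoding RNA inside Trappc9, had 69, 19 and 118 reads in the wild type and 139, 22 and 100 in the mutant. Trappc9 site 2 (chr15:72549180-72550047), 3239 bp from the Kcnk9 start and without an upstream motif, had 86, 24 and 152 reads in the wild type and 145 in mutant brain and 79 in mutant lung, with log2 ratios of 0.51 and −0.84 and no peak in mutant heart. Of the 2 sites by Kcnk9 described here, neither was listed in mutant heart, and in mutant brain one was lower and the other higher than in the wild type.

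The Dlk1-Dio3 domain, with the noncoding RNAs Meg3, Rian and Mirg of the maternal copy and the protein genes Dlk1, Rtl1 and Dio3 of the paternal copy, held 11 sites but only 1 peak in each heart list. Dlk1-Dio3 site 3 (chr12:109541886-109542474) had 37 and 34 reads in wild-type brain and lung and 77 and 47 in the mutant. Dlk1-Dio3 site 4 (chr12:109542752-109543247) had 66 and 77 reads in wild-type brain and lung and 121 and 78 in the mutant. Both lay within 1 kb of an annotated Meg3 start, whose promoter methylation follows the germline mark of the domain, and neither was listed in a heart library. None of the 10 cores of this domain had an upstream motif.

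Grb10, a growth-factor receptor adaptor, and Ddc, an enzyme gene of dopamine and serotonin synthesis, held 11 sites. Site 2 (chr11:11811857-11812413) had 111, 52 and 240 reads in the wild type and 90, 35 and 154 in the mutant. At annotated Grb10 starts, site 8 (chr11:12025550-12026231) had 56, 40 and 102 reads in the wild type and 125, 31 and 89 in the mutant. Site 9 had 22 reads in wild-type lung alone. Site 10 had 15 reads in wild-type brain and 29 in wild-type lung, and no mutant peak. Site 8, the highest of the Grb10 starts, was listed in all 6 libraries, and the 2 lower ones in no mutant library.

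Gnas, which encodes the stimulatory G-protein subunit and several transcripts with parent-specific promoters, held 9 sites. Its promoter sites were listed in some libraries and not in others, while both intronic sites were in all 6. Site 1 (chr2:174283910-174284390) had 26, 10 and 49 reads in the wild type and 43 in mutant brain alone. Site 4 (chr2:174297278-174297613) had 33 reads in wild-type brain and 36 in wild-type lung and no mutant peak. Sites 7, 8 and 9 were absent from the wild-type lists and had 18, 37 and 18 reads in mutant brain, and sites 7 and 8 had 14 and 36 in mutant lung. The intronic site 5 (chr2:174310779-174311434) was listed everywhere, with 83, 49 and 130 reads in the wild type and 157, 30 and 119 in the mutant.

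Annotated starts of 15 genes with a germline or promoter mark were looked at for sites within 1 kb, and 7 had one. These were Peg10, Mest, Nnat, Gnas, Grb10, Meg3 and Zdbf2, with 17 sites in all. The 8 without one were Kcnq1ot1, Airn, Peg3, Snrpn, Plagl1, Zrsr1, Impact and Rasgrf1. This count covers annotated starts alone, and control regions further from a start were not looked at in it. Wild-type lists had a site at the starts of 5, 3 and 5 genes in brain, heart and lung, and mutant lists at 7, 2 and 5. Over 21924 protein-coding genes 46.9% had a site at a start in any list, and by organ the shares were 28.1%, 17.5% and 37% in the wild-type lists and 37.8%, 12% and 30.9% in the mutant lists.

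At Peg10, a retrotransposon-derived gene, the single site (chr6:4746729-4747584) lay at the start it shares with Sgce and had 40 and 84 reads in wild-type brain and lung. The mutant had 83, 20 and 90 reads in brain, heart and lung, and the wild-type heart list had no peak there. At Mest, a hydrolase gene, site 1 (chr6:30736835-30737448) had 82, 31 and 110 reads in the wild type and 102 in mutant brain and 97 in mutant lung. Mest site 2 had 24 and 17 reads in wild-type brain and lung and 25 in mutant brain, and site 3 had 18 and 32 in wild-type and mutant brain. At Nnat, which encodes a small membrane protein of neurons, sites 2 and 3 were listed in mutant brain alone, with 22 and 9 reads. Site 6 (chr2:157571354-157572024), 435 bp from the start of Blcap, which holds Nnat in its intron, had 97, 47 and 176 reads in the wild type and 210, 53 and 174 in the mutant. Zdbf2 had a single peak, of 11 reads in mutant brain.

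The Snrpn domain, which underlies the Prader-Willi and Angelman syndromes in people, held 8 sites, with 6, 1 and 6 peaks in the wild-type lists and 6, 0 and 4 in the mutant lists. Ndn, a gene of this domain, and Kcnq1ot1 were the 2 of the 48 genes without a peak in any list. Snrpn site 8 (chr7:62428334-62428682), upstream of the ubiquitin ligase gene Mkrn3, had 60 and 71 reads in wild-type brain and lung and 19 in mutant brain, with no peak in mutant lung. Site 2, at the start of Ube3a, another ubiquitin ligase gene, had 53, 16 and 77 reads in the wild type and 82 in mutant brain and 25 in mutant lung.

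The Peg3 domain, with the zinc-finger genes Peg3 and Zim1 and the protease gene Usp29, held 8 sites. Its wild-type lists had 6, 4 and 8 peaks and its mutant lists 6, 5 and 6. Site 8 (chr7:6940682-6941155, in Usp29) had 48, 29 and 124 reads in the wild type. The mutant had 36 reads there in brain and 35 in lung, with log2 ratios of −0.66 and −1.72 and no peak in heart. Site 6 (chr7:6918067-6918838, in Usp29) had 128, 28 and 154 reads in the wild type and 162, 47 and 165 in the mutant. It was listed in all 6 libraries, as were the next 4 sites. H13 site 1 (chr2:152669127-152669874), 54 bp from the start of H13, an intramembrane protease gene that hosts an imprinted retrogene, had 145, 35 and 245 reads in the wild type and 258, 62 and 256 in the mutant. Inpp5f site 3 (chr7:128705486-128706362), by a phosphatase gene, had 148, 48 and 202 reads and 160, 43 and 151. Plagl1 site 2 (chr10:13087154-13087678), in a zinc-finger gene, had 112, 31 and 144 reads and 149, 38 and 128. Zrsr1 site 6 (chr11:22987180-22987831) had 87, 29 and 127 reads and 115, 37 and 121. The scaled log2 ratios of these 5 sites ran from −0.13 at Inpp5f site 3 to 0.58 at H13 site 1 in brain, from −0.31 to 0.68 at the same sites in heart, and from −0.32 at Inpp5f site 3 to 0.20 at Peg3 site 6 in lung.

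Rasgrf1, a guanine nucleotide exchange factor gene, had 3 sites, of which site 2 (chr9:89973753-89974141) had 20 and 38 reads in wild-type brain and lung and 36 and 22 in the mutant, and the other 2 were listed in wild-type lung alone. No heart peak was listed there. Impact, a regulator of translation, had 2 sites, of which site 1 was in all 6 libraries, with 45, 22 and 108 reads in the wild type and 64, 24 and 104 in the mutant. Site 2 had 17 reads in wild-type brain and 17 in mutant brain, and no peak in the other lists.

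By annotation, 50 member sites lay at a promoter (34.5%, against 25.6% of all sites), 7 in an exon, 67 in an intron (46.2%, against 37.7%) and 21 between genes (14.5%, against 31.9%), an order that a rule built on gene windows favours. Member windows held 38.8 sites per Mb, and the windows of all protein-coding genes 33.3. At the edge of the 10 kb window, the last site inside was 9487 bp from Inpp5f, with 148, 48 and 202 wild-type reads, and the first outside was 10286 bp from Ddc, with 10 reads in wild-type lung alone. The next outside was 11431 bp from Kcnq1, with 21, 49 and 146 wild-type reads and 33, 48 and 102 mutant reads.

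A further 34 imprinted genes outside the 48 were looked at in the same way. In wild-type lists 22, 19 and 25 of them had a peak in brain, heart and lung, and in mutant lists 23, 14 and 22. A mutant peak overlapped 48 of 56, 22 of 41 and 57 of 74 of their wild-type peaks (85.7%, 53.7% and 77%). Of these wild-type peaks, 7, 6 and 7 also lay in a member window. Over the whole wild-type lists 81.5%, 50.6% and 67% of peaks were overlapped. The share of all genes with a peak is not given here.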

How the data were processed

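Per the study's methods, equal amounts of HEK293T chromatin were added as a spike-in, reads were trimmed with Trim Galore, aligned with Bowtie2 to a joint mm10 and hg38 genome and kept where unique with a mapping quality above 30, and peaks were called with MACS2 at default options for each library. Spike-in factors do not enter the lists, and which input served as control is not given in the sources used here. The authors' lists hold a score from the q-value (not used), a fold enrichment (a ratio with a pseudocount of 1 at the summit), −log10 p and −log10 q values, and the summit offset, deposited as a distance from the region's start.

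Lines sharing a region were counted once, at the summit of highest fold enrichment. Whole-number summit pileup and local background were solved from fold enrichment and p, which succeeded for 100% of lines, and the lowest background of a list was its genome background. Genes came from GENCODE M21 on GRCm38. Overlap required 1 bp. The core matrix of 19 columns was learned from the 2000 highest wild-type brain peaks, of which 1966 contributed a site. Recovery and motif calls were tested on simulated data. The members, gene lists and rules were chosen with earlier results of these data known.

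Named sites were those within 5 kb upstream of the H19 start, the site of highest median wild-type pileup in each domain, sites with wild-type peaks in all 3 organs and mutant peaks in at most 1, sites with a pileup ratio of at least 2-fold one way in every organ with both peaks (at least 2 organs), and sites within 1 kb of the starts of 15 genes. Others named were chosen after their values were seen. No p-value was computed, since there was 1 library per organ and genotype. Values were recomputed with gene bodies alone, a 50 kb window, peaks with −log10 q of 5 or more, every summit line, lists of equal length, other overlap rules, other scalings and stricter motif calls. Sequences were read with pysam 0.24.0, intervals computed with statsmodels 0.14.6 and scipy 1.17.1, and figures drawn with matplotlib 3.10.9, under Python 3.11.15 with pandas 2.3.3 and numpy 2.4.6.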

Additional observations from a re-analysis of the deposited data

Results flagged for a closer look

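The difference between mutant and wild-type peak numbers pointed in opposite directions in different organs for the members together and for 7 domains. Each value below rests on 1 library per organ and genotype, and the differences between organs were not tested. Over all members the mutant lists had 16 more peaks in brain, and the differences in heart and lung were −20 and −22. For the Kcnq1 domain they were 7 in brain, −6 in heart and −4 in lung. For the Dlk1-Dio3 domain they were 3, 0 and −1, and for the Gnas domain 3, −1 and 0. For the Peg3 domain they were 0, 1 and −2, for the Plagl1 domain 1, 0 and −1, for the Zrsr1 domain 1, −1 and −1, and for the H13 domain 0, −1 and 2. The whole lists also differed in direction, with mutant-to-wild-type ratios of 1.07, 0.547 and 0.732 for brain, heart and lung. With both lists of an organ cut to equal length the member numbers were 93 and 103 for brain, 34 and 42 for heart and 92 and 93 for lung. The brain difference then still pointed up, with a log2 ratio of 0.15 in place of 0.23. The heart and lung differences no longer pointed down.

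The local background, which is no part of a pileup value but enters the calling of peaks and the choice of a region's summit, was 2.72 times the genome background at member summits of the wild-type lung list, against at most 1.13 times in the other lists, and its part in the lung results was not tested.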

How the results depend on the processing

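Of 78 values recomputed under alternatives, 62 stayed within the counting interval of the reported value or, for peak numbers, within 1.5 times of it. Cutting both lists of an organ to equal length gave 34 member peaks in wild-type heart, turned the log2 ratio of member peak numbers in heart from −0.56 to 0.30, and raised the overlapped share to 82.4% in heart and 82.6% in lung. Gene bodies alone gave 40 and 26 member peaks in wild-type and mutant heart, and a 50 kb window gave 94 and 64. Relative to the median of all shared sites, the median log2 pileup ratio turned from −0.13 to 0.12 in heart and from −0.11 to 0.25 in lung. With the deposited fold enrichment it became 0.25 (brain), −0.034 (heart) and 0.81 (lung), where the wild-type background was raised. At p of 1e-05 or less the core was called at 62.1% of member sites. The upstream motif was called at 12.4% of member cores with at most 1 mismatch, and at 16.5% where it had to end 5 or 6 bases before the core, a choice made after seeing the data. Apart from the fold enrichment, whose construction includes the local background, the cause of these shifts was not tested.

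Within an organ no paired analysis was possible because each organ and genotype had 1 library and the labels carry no replicate numbers, and for the same reason there was no leaving out of replicates. A pairing of the genotypes across the 3 organs, which would take organs as replicates, was not run. A peak missing from a list is below the caller's threshold at that depth and is not shown to be unbound.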

Other observations

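With at most 1 mismatch in the upstream motif, mutant peaks overlapped 10 of 13 member peaks in brain, 3 of 9 in heart and 9 of 16 in lung, and over whole lists 73.1%, 37.3% and 55.7% of such peaks. With the match required to end 5 or 6 bases before the core, the member counts were 13 of 17, 4 of 12 and 12 of 20, and the whole-list shares 75.3%, 41.7% and 60.2%. Both stricter calls thus gave lower member shares than the main call in each organ, on few peaks, and the difference was not tested. At shared member sites the median log2 pileup ratio with the motif was −0.15, −0.12 and −0.32 for brain, heart and lung, and without it 0.15, −0.12 and −0.09. Over all shared sites with a core it was −0.27, −0.33 and −0.64 with the motif and 0.04, −0.23 and −0.28 without it.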
